A study of Mus musculus with 6 samples.

Results

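Actb and Tuba1b are the 2 cytoskeleton genes among the 15 genes that the array files pair with a probe through a RefSeq transcript. Actb encodes beta-actin and was read by the probe CUST_9_PI419532418, made for the transcript NM_007393. Tuba1b encodes an alpha-tubulin and was read by CUST_1_PI419532418, made for NM_011654. Both were found by these transcript names, and each probe was printed at 20 spots on every array. The pair was selected on its measured levels, with earlier results of the same comparison known, above all the lower Actb signal in diseased spleens. The differences between groups are therefore given as a description, with no test.

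The arrays measured RNA of 6 spleens, 1 array per mouse. The 3 mice of the disease group had experimental autoimmune encephalomyelitis (EAE), a model of multiple sclerosis, after immunization with a myelin oligodendrocyte glycoprotein peptide at 2 mg/mL and 200 ng of pertussis toxin. The titles and the treatment protocol name different residues of that peptide. The 3 control mice were given phosphate-buffered saline (PBS) where the others had the peptide, and whether they also received the toxin is not given in the sources used here. All mice were female, C57BL/6 and 12 weeks old, and no transgene or deletion is named for any of them. The spleen is an immune organ outside the nervous system that the disease affects. Of 18 marker genes of spleen cell types, 1, the red cell lineage gene Tfrc, could be matched to a probe, so the labelled tissue was not checked against its markers.

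Beta-actin polymerises into the filaments that shape the cell cortex and drive the migration of leukocytes and the contact between T cells and antigen-presenting cells. Alpha-tubulin pairs with beta-tubulin to build microtubules, which carry vesicles, position organelles and form the mitotic spindle of dividing cells. Both genes are expressed in nearly all cells, and beta-actin is widely used as a reference when RNA levels are compared. A further 39 genes of actin and tubulin biology, among them Actg1, Cfl1, Pfn1, Tuba1a and Tubb5, were looked for, and 0 of them could be matched to a probe by name. What follows is thus about 2 genes and not about the cytoskeleton as a pathway. Actin and tubulin genes have near-identical relatives, such as Actg1 and Tuba1a, whose RNA may contribute to these signals; the files give no probe sequences with which to check this.

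The Actb spots were dimmer on every EAE array than on any PBS array. Before any scaling, the mean processed signal of Actb was 50941, 72909 and 51804 on PBS arrays 1, 2 and 3. It was 10216, 19414 and 16203 on EAE arrays 1, 2 and 3. The brightest EAE array, EAE 2, thus stayed below the dimmest PBS array, PBS 1. The groups did not overlap even at single spots, since the highest Actb spot in EAE read 20643 and the lowest in PBS read 48369.

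Tuba1b, in contrast, was only slightly dimmer in EAE before scaling, with a log2 difference of -0.22. Its mean processed signal was 174998, 163746 and 130237 on PBS arrays 1, 2 and 3, and 127617, 124829 and 149191 on EAE arrays 1, 2 and 3. The groups overlapped, with EAE 3 above PBS 3, while in 8 of the 9 pairs of a PBS and an EAE array the EAE array was dimmer.

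**Figure D1:**
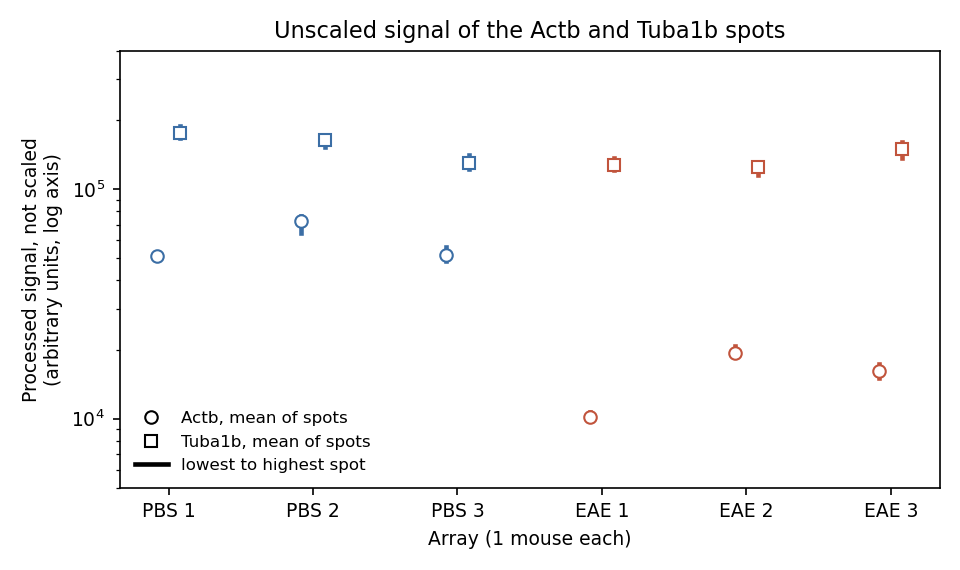
Unscaled processed signal (log axis, arbitrary units) of the Actb and Tuba1b spots on each array; open symbols are means over spots and bars run from the lowest to the highest spot. The Actb means lie between 10216 and 19414 on the EAE arrays and between 50941 and 72909 on the PBS arrays, while the Tuba1b means of the groups overlap.

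The EAE arrays were dimmer as a whole, so unscaled signals mix the gene with the array. The 75th percentile of the signal was 429 to 567 on the PBS arrays and 277 to 392 on the EAE arrays. Probes well above background made up 67.9% to 70.9% on PBS arrays and 58.5% to 65.2% on EAE arrays. Each array was therefore divided by its own 75th percentile, and levels are given as log2 of that ratio. The Actb and Tuba1b spots themselves were far from both ends of the scale. All 20 spots of both genes were well above background on all 6 arrays, and the brightest of them reached 23.8% of the scanner's saturation value.

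After scaling, Actb was still lower in every EAE spleen. Its log2 level was 6.69, 7.00 and 6.92 on PBS arrays 1, 2 and 3, and 5.20, 5.88 and 5.37 on EAE arrays 1, 2 and 3. The lowest PBS array lay 0.80 above the highest EAE array. The group means were 6.87 ± 0.16 (SD, n = 3) in PBS and 5.49 ± 0.35 in EAE. The difference of -1.38 ± 0.23 (SE, limma over all tested probes) is a level 2.61 times lower in EAE, and is 5.01 times the pooled SD within groups.

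Tuba1b was slightly higher in every EAE spleen after scaling. Its log2 level was 8.47, 8.17 and 8.25 on PBS arrays 1, 2 and 3, and 8.85, 8.57 and 8.57 on EAE arrays 1, 2 and 3. The groups were separated by 0.10, from PBS 1 to EAE 2. The means were 8.29 ± 0.15 (SD, n = 3) in PBS and 8.66 ± 0.16 in EAE, a difference of 0.37 ± 0.18 (SE), or 1.29-fold. This separation was not stable to scaling. The groups overlapped with quantile normalization (0.12), with cyclic loess (0.026) and with no scaling (-0.22), which turned the direction.

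**Figure D2:**
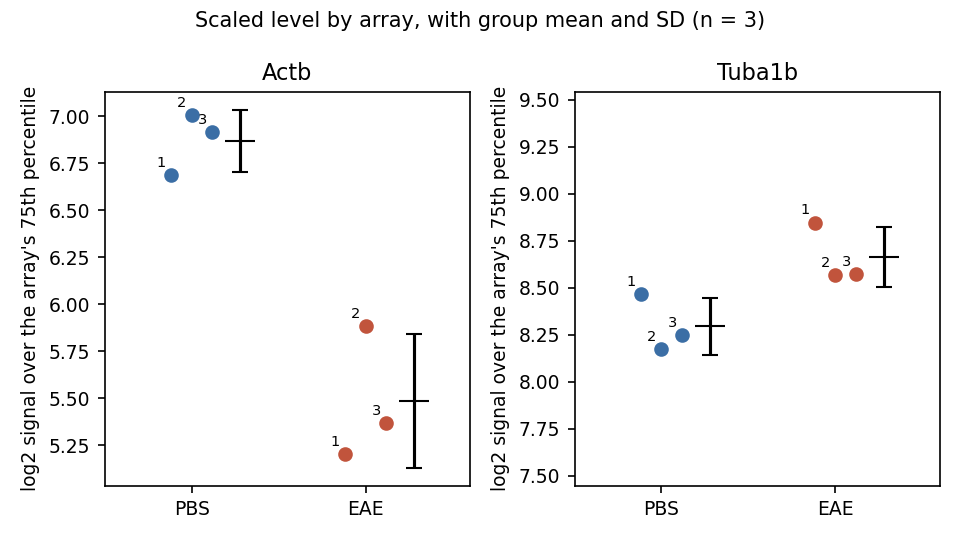
Log2 signal over the array's 75th percentile for Actb (left) and Tuba1b (right); points are arrays, labelled with their replicate number, and black bars are group means with SD (n = 3). Both panels span the same range: the Actb means are 6.87 in PBS and 5.49 in EAE, and the Tuba1b means 8.29 and 8.66.

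Groups that do not overlap were common on these arrays, so the separation of both genes has to be read against that background. On at least 3 of the 6 arrays, 41178 probes were well above background and were tested. Of these, 13.6% had every EAE array below every PBS array, as Actb did. The opposite, as for Tuba1b, held for 19.5%, which makes 33.1% in all. With normexp background correction these counts were 3390 lower and 11873 higher, against 5599 and 8017. Nothing is read from the count of 2 of 2 genes without overlap, because the same comparison chose them. By size, 2.48% of the tested probes had a lower difference than Actb and 21.8% a higher one than Tuba1b. The median difference of all tested probes was -0.02.

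Differences on these arrays also moved with brightness, and here the genes parted. Tuba1b was among the brightest 1% of tested probes. In that band of 411 probes the median difference was 0.23, and 47.2% were higher in EAE without overlap. The value of Tuba1b exceeded that median by 0.13, which is less than its SE of 0.18. Actb was in the next band, from 1% to 10%, where the median difference was 0.22 over 3706 probes and 4.56% were lower without overlap. In that band 49 probes, Actb among them, had a difference of -1.38 or lower, which is 1.32%. The median was -0.06 and -0.10 in the dimmer bands, from 25% to 50% and from 50% to 100%.

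**Figure D3:**
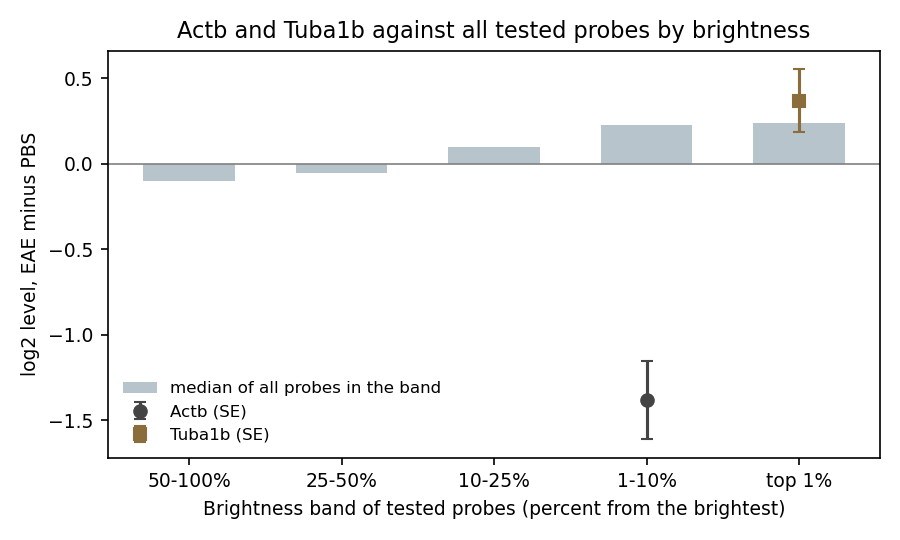
Median log2 difference, EAE minus PBS, of the tested probes in 5 bands of brightness (grey bars), with Actb and Tuba1b at their own bands (points, with SE). The median runs from -0.10 in the dimmest band to 0.23 in the brightest; Tuba1b at 0.37 stands near its band and Actb at -1.38 far below its own.

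The ratio of the signals within an array is unaffected by dividing that array by 1 factor. Tuba1b spots were 3.43, 2.25 and 2.51 times as bright as Actb spots on PBS arrays 1, 2 and 3. On EAE arrays 1, 2 and 3 they were 12.5, 6.43 and 9.21 times as bright. The lowest EAE ratio was thus well above the highest PBS ratio. On the log2 scale Actb minus Tuba1b was -1.43 ± 0.32 (SD, n = 3) in PBS and -3.18 ± 0.48 in EAE. The difference of -1.75 ± 0.33 (SE from the 6 arrays) corresponds to a ratio 3.37 times lower in EAE. Probes bind with different strength, so the ratio compares arrays and does not say which RNA is more abundant.

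**Figure D4:**
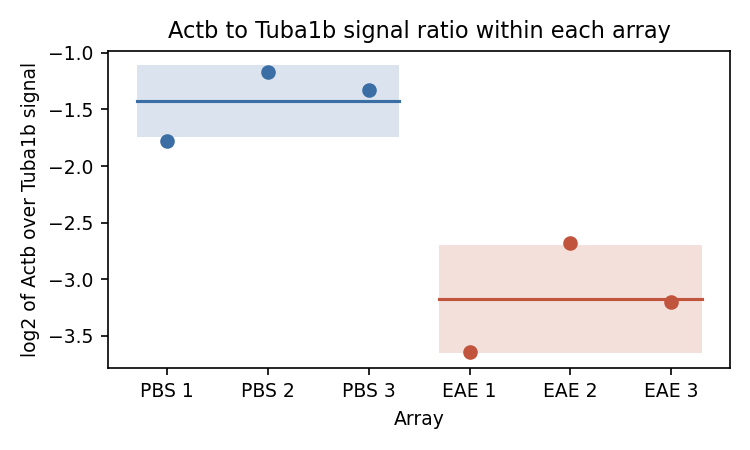
Log2 of the Actb over the Tuba1b signal on each array; bars give the standard error from spots, smaller than the points, and lines with shading give group means with SD (n = 3). The PBS arrays lie between -1.78 and -1.17 and the EAE arrays between -3.64 and -2.68.

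On the scaled levels, the genes stood in opposite order within both groups. Among PBS spleens Actb was lowest and Tuba1b highest on PBS 1, and Actb was highest and Tuba1b lowest on PBS 2. Among EAE spleens Actb was again lowest and Tuba1b highest on EAE 1. On EAE 2, where Actb was highest, Tuba1b was within the spot error of EAE 3. The unscaled signals kept this order only in part. Actb was then lowest and Tuba1b highest on PBS 1, but Tuba1b was lowest on PBS 3. Within EAE, unscaled Actb was highest and Tuba1b lowest on EAE 2, but Tuba1b was highest on EAE 3. With 3 arrays a group the order is a description and was not tested.

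The 20 spots of a probe gave the error of reading its signal on 1 array. The SD over Actb spots within an array was 0.028 to 0.054 on the log2 scale, and that over Tuba1b spots 0.045 to 0.060. Outlier flags removed 3 of the 120 Actb spots and 4 of the 120 Tuba1b spots. The SD between EAE spleens was 8.30 times the mean spot SD for Actb and 3.04 times for Tuba1b. Between PBS spleens it was 3.84 and 2.90 times. Spots of 1 array share its RNA and labelling, so they measure printing and scanning error and are not replicates of a mouse.

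Each spot had the same position on all arrays, so the difference could be read at 20 places. These readings share the RNA of the same 6 spleens and are not repeats of the comparison. For each gene, 3 positions lacked at least 1 array because of outlier flags, and 17 had all 6. For Actb the difference ranged from -1.45 to -1.29 over the 20 positions. At all 17 complete positions every EAE array lay below every PBS array. That follows from the gap of 0.80 between the groups, beside a spot SD of at most 0.054. For Tuba1b the difference ranged from 0.27 to 0.43, and 14 of its 17 complete positions had no overlap. The ends of these ranges at -1.29 and 0.27 came from positions with arrays missing. The positions spread from row 13 to row 347 of the 384 rows, and the differences stayed within these narrow ranges throughout.

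**Figure D5:**
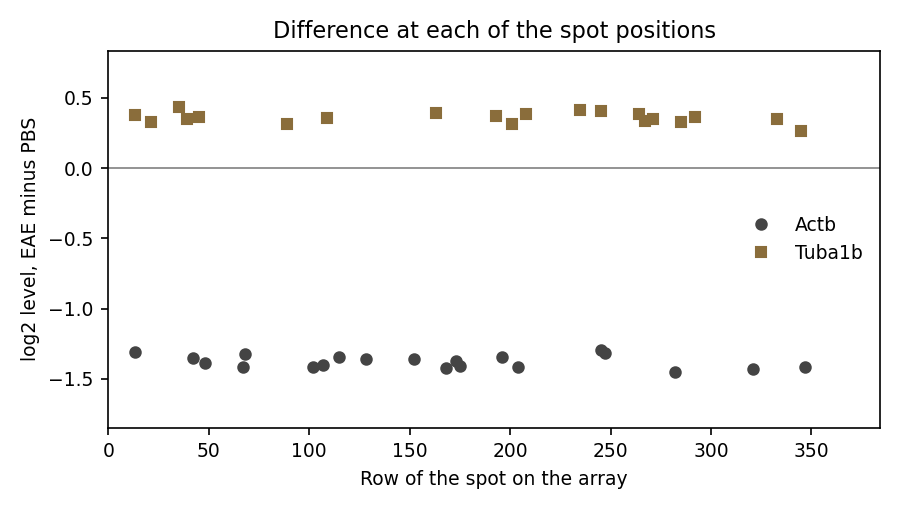
Log2 difference, EAE minus PBS, at each of the 20 positions of the Actb spots and of the Tuba1b spots, by the row of the spot on the array. Actb stays between -1.45 and -1.29 and Tuba1b between 0.27 and 0.43 along the whole array.

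EAE spleens differed more among themselves in Actb than PBS spleens did, with SDs of 0.35 and 0.16. This was also so for 75.7% of the 41131 tested probes with a value on all 6 arrays, whose median SD was 0.32 in EAE and 0.18 in PBS. Of the 15 named genes, 2 varied more between EAE spleens than Actb, and these were G6pd2 (SD 0.65) and Tfrc (0.52). Tuba1b varied about equally in both groups, with SDs of 0.16 and 0.15. Among the 15 genes, Hprt (0.13) and B2m (0.10), which encodes a subunit of MHC class I molecules, varied less than Tuba1b between EAE spleens.

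Set against the other named genes, Actb was lower in EAE relative to nearly all. Its ratio to 13 of the 14 other genes did not overlap between the groups, with differences from -2.51 to -1.12. The exception was Tfrc, the transferrin receptor gene, at -0.79 with SDs of 0.54 in PBS and 0.86 in EAE. The 13 include the dimmest named genes, Ldhal6b and Gk, with mean unscaled signals of 59.9 and 343 and a mean spot SD of 0.14 each. All 14 ratios share the same Actb levels, so the count restates the Actb difference and is not separate evidence. The levels of the 13 genes other than Actb and Tuba1b differed by -0.59 to 1.13. For 4 of these 13 the groups did not overlap. As 33.1% of all tested probes had no overlap in either direction, nothing is read from that count. Tuba1b moved little relative to the glycolytic gene Gapdh (0.06, with SDs of 0.09 and 0.15) and the purine salvage gene Hprt (0.12, with SDs of 0.10 and 0.05). In all, its ratios overlapped for 4 genes, were higher in EAE for 9, Actb among them, and lower for 1, G6pd2. The Tuba1b ratios all share the same Tuba1b levels, so these counts are not separate evidence either.

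Over the 6 arrays, with the group difference included, Tuba1b was most like Hprt and the lysosomal enzyme gene Gusb (Pearson r of 0.94 and 0.92) and least like Actb (-0.91). Actb had no close match. Its highest r was 0.55, with Tbp, the TATA-binding protein gene, then 0.37 with Tfrc, and its lowest was -0.94 with G6pd2, which derives from a gene of the pentose phosphate pathway. These r describe 6 arrays that fall into 2 groups and share 1 scale factor per array.

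Several properties of the arrays moved with the groups and stand beside the Actb value. Mouse GAPDH control spots, named for the ends of the transcript, had a 3′ minus 5′ log2 difference of 1.17, 1.15 and 1.05 on PBS arrays 1, 2 and 3, and 1.20, 1.39 and 1.49 on EAE arrays 1, 2 and 3. The group means differed by 0.24. Rat GAPDH spots gave -0.49, -0.31 and -0.40 in PBS and 0.17, -0.30 and 0.58 in EAE, with means 0.55 apart. Human GAPDH spots gave 4.54, 4.37 and 4.31 in PBS and 4.88, 4.95 and 5.11 in EAE, with means 0.57 apart. In all 3 sets the groups did not overlap and EAE was higher, for the mouse and rat spots by small margins. The sets share the RNA of the same 6 spleens, and the rat and human spots are named for other species. They are therefore not 3 separate checks of transcript ends. Among all tested probes, 33.1% had no overlap in either direction. The part of transcript ends in the Actb result was not tested. EAE 3 was scanned apart from the other 5 arrays, and the local background at its Actb spots was 34.3 against 17 to 18 elsewhere. Without EAE 3 the differences were -1.33 for Actb, 0.41 for Tuba1b and -1.74 for their ratio. In whole spleen, fewer cells rich in Actb RNA and less Actb RNA per cell cannot be told apart.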

How the data were processed

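RNA of 3 PBS and 3 EAE spleens was labelled with Cy3 by random priming and hybridised to 1-colour Agilent arrays, per the labels' protocols. Intensity values came from Agilent Feature Extraction 11.0.1.1, per the file headers and the submitters' processing notes. The scanner software subtracted the background and removed trends across each array, and the arrays were not normalized to each other. The array design names build mm9. The log2 values the authors deposited for 60804 probes hold 0 of the 15 RefSeq-named probes and were used only to establish that. Symbols came from RefSeq accessions without versions (all 15 matched).

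Of 62939 spots per array, 61200 were neither controls nor negative-named. Among these, 138 over the 6 arrays had outlier flags and were left out; 0 were saturated. Log2 processed signals minus log2 of the array's 75th percentile were averaged over the spots of a probe. limma 3.58.1 (R 4.3.3, EAE against PBS, no covariates) was fitted over 41178 probes (well above background on 3 or more of 6 arrays), for differences and moderated SEs; checked on simulated data. The SE of the ratio came from the arrays' own variances. Arrays have no count depth, and their number limits the precision. Each array is a separate mouse. The named genes were Actb and Tuba1b, and for each the 2 other named genes with the highest and the 1 with the lowest Pearson r; Gapdh, B2m and, for their spread or ratio, others of the 15 were singled out after their values were seen. Both genes, the lists and the rules were chosen with earlier results of these data known. Alternatives were other scalings, normexp (offset 50, on median signals), spot medians, flags kept, a replicate block, a scan block, array weights and each array left out.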

Additional observations from a re-analysis of the deposited data

How the results depend on the processing

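Actb and its ratio to Tuba1b were lower in EAE, without overlap of the groups, in all 18 alternatives. These are not 18 separate checks of overlap. Leaving 1 array out of groups that do not overlap cannot make them overlap. A block or array weights change the fit and not the levels of the arrays. The scan block repeated the Actb difference found without the array scanned apart, -1.33. Dividing each array by 1 factor, or leaving the scaling out, cannot change the ratio, which stayed at -1.75. Actb ranged from -1.24 to -1.58 with 1 array left out, and was -1.97 without scaling. The ratio ranged from -1.52 to -2.00 with 1 array left out and from -1.67 to -1.80 in the other alternatives. Tuba1b ranged from 0.27 to 0.45 with 1 array left out, was 0.12 with quantile normalization and 0.026 with cyclic loess, and reversed to -0.22 without scaling. Leaving out the scaling puts the dimness of the EAE arrays back into both genes alike; why quantile normalization and cyclic loess moved Tuba1b was not tested. A replicate block left the differences at -1.38 and 0.37, with SEs of 0.24 and 0.23. Arrays with the same number deviated from their group means with correlations of 0.15, 0.04 and -0.14, which does not pair them. Normexp moved the median difference of all tested probes from -0.02 to 0.14, and no scaling moved it to -0.60. With dim probes kept, 6397 of 60915 probes (10.5%) were lower and 13821 (22.7%) higher without overlap. This compares with 5599 (13.6%) and 8017 (19.5%) of the 41178 tested probes. Without scaling, a setting added after the data were seen, 21049 of these 41178 were lower and 1769 higher. Counting negative-named spots in the percentile, also added, gave -1.38 and 0.37. Probe sequences were not used here, so binding by related transcripts limits both values.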
